A study of Mus musculus with 12 samples.

Results

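Salivary tumors of MMTV-ras mice were examined for the genes of the lysosome, the acidic compartment in which a cell breaks down protein, lipid, glycan and nucleic acid. A list of 38 genes was followed, covering luminal enzymes, their activator proteins, proteins of the lysosomal membrane and the proton pump. Its members are the array probe sets, groups of short oligonucleotides that read the same transcript, whose single annotated gene symbol is on the list. This gave 61 of the 22626 probe sets tested and 36 of the 38 genes, while Arsb and Cd63 were not analysed here. The list holds Psap and Smpdl3a, which the study had picked as changed in these same tumors, so their difference is not independent evidence about the list.

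Lysosomal enzymes are made in the endoplasmic reticulum, tagged in the Golgi with mannose 6-phosphate and carried to the lysosome by receptors. Many of their genes carry an E-box read by TFEB and its relatives, transcription factors that mTORC1 at the lysosome surface holds in the cytoplasm while nutrients are plentiful. Macrophages are rich in lysosomes, and secretory epithelium such as that of salivary gland also uses them to clear granules. In a tumor measured in bulk, fewer cells of a type and less RNA per cell cannot be told apart.

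The 12 tumors fall into 3 genotypes with 4 tumors each. The MT tumors came from MMTV-ras/p53R172H/R172H mice, which are homozygous for a p53 allele with a missense change in the DNA-binding domain. The KO tumors came from MMTV-ras/p53-/- mice, which lack p53, and the WT tumors from MMTV-ras/p53+/+ mice. All 3 groups carried the ras transgene under the mouse mammary tumor virus promoter, and all were tumors of adult mice on a mixed C57BL/6 and BALB/c background. The study reports earlier tumor onset in KO and MT than in WT mice. It bred the MT line from p53 mutant mice on C57BL/6 and kept it as a colony by interbreeding. The part of age and colony in the differences between genotypes was not tested. The labels do not say whether each tumor came from a separate mouse, so p-values measure only the spread between these tumors. Each was read once on an Affymetrix mouse array, and levels below are log2 values after robust multi-array averaging (RMA), a difference of 1 being a 2-fold change.

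MT1, MT2 and MT3 stood apart in the poly-A labeling controls, which averaged 10.38 to 10.56 in these 3 tumors and 3.98 to 4.23 in the other 9, MT4 included. What this control difference stands for is not given in the labels, and it is called a labeling batch below. Values with it as a term rest on MT4 for the MT group. All KO and WT tumors are in the larger batch, so the term leaves KO minus WT differences unchanged and moves only their p-values. Other controls did differ between KO and WT tumors. The 18S rRNA controls averaged 8.90 to 9.33 in WT1 to WT3, 7.51 in WT4 and 7.36 to 8.03 in KO tumors. KO4 had an actin 3′ minus 5′ difference of 1.05, against 0.17 to 0.58 in the other tumors. The part of these control differences in KO minus WT values was not tested. WT1 held far more B and plasma cell RNA than the rest, with a mean of 9.09 over 5 markers against 5.0 to 5.40 in the other tumors. Of the 5, Pax5 was not raised there (5.24, against 5.89 in WT2). WT1 also had the highest mean of T and NK cell markers (7.06, against 5.36 to 5.78). Its granulocyte markers were highest too (7.21, against 5.35 to 6.33). Luminal epithelial markers averaged 10.38 to 10.99 in MT, 10.63 to 11.10 in KO and 9.30 to 10.61 in WT tumors, so each tumor held epithelium.

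An E-box, CACGTG, and its longer form GTCACGTG were looked for on both strands in the window that runs 250 bases before to 50 bases after each gene's start, taken from RefSeq (GRCm38.p6). At least 1 window was at hand for 31 of the 36 measured genes. GTCACGTG, which contains the shorter E-box, was present in 11 of these 31 (35.5%), against 2.55% of the 27025 genes with such a window. The plain E-box was present in 13 of 31 (41.9%), against 8.09%. The sites of 8 genes are shown because the longer form was found more often among the members than among all genes, although most members with a window lack it, as 30 bases read 5′ to 3′ on the gene's strand with the 8 bases around the E-box in capitals. Gaa, the member whose probe sets were called higher in KO tumors, has the plain E-box but not the longer form and is shown last.
Arsa (chr15:89477424-89477453, minus strand): ttcaactcagtGTCACGTGttgtctgctcc
Gla (chrX:134601183-134601212, minus strand): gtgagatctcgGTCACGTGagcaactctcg
Glb1 (chr9:114401017-114401046, plus strand): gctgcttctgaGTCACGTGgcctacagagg
Lgmn (chr12:102439125-102439154, minus strand): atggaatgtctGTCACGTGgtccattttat
Mcoln1 (chr8:3500435-3500464, plus strand): gggtcgcgcttGTCACGTGttcagttcagg
Naglu (chr11:101070008-101070037, plus strand): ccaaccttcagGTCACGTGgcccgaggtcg
Cln3 (chr7:126583341-126583370, minus strand): tcacgggtactGTCACGTGacccccaacct
Gaa (chr11:119267810-119267839, plus strand): ttttctgtgcgATCACGTGtttgactctga
The other members with GTCACGTG were Atp6v0d1, Ctsa, Ctsd and Lamp1. A match of letters is not a measured binding site.

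The members with the longer form did not move as a block. Over the 11 genes, each read by its probe set with the highest mean, KO minus WT differences ran between -0.38 and 0.66 with a median of 0.01, and MT minus WT differences between -0.35 and 0.79 with a median of -0.07. None of the 11 had a probe set called in any comparison. Of the 5 genes that did, 3 have a window (Gaa, Lipa and Psap), and none of these 3 holds GTCACGTG.

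Between p53-null and WT tumors, calls fell on a few lysosome genes. Most members were not called, which does not show that they were unchanged. In KO against WT tumors, 6 of 61 probe sets passed an adjusted p of 0.05 (9.84%), where 4.57% of all probe sets passed. The 4 that fell in KO tumors read Smpdl3a, Psap, Ctsb and Lipa (2.64% of all probe sets fell), and the 2 that rose both read Gaa (1.94% of all rose). In MT against WT tumors, 1 of 61 passed (1.64%, against 0.367% of all), and it was Smpdl3a again, lower in MT. Smpdl3a and Psap were on the list with their change in these tumors known. The excess of both shares over all probe sets is therefore not independent evidence about the list. In MT against KO tumors, 0 of 61 passed with limma (0.00884% of all did), and the methods' t-test also gave 0. An unadjusted limma p under 0.05 was found there at 13 of the 61, a larger share than the 9.58% of all probe sets. In KO against WT tumors 17 of the 61 had such a p (23.9% of all probe sets did).

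The count of 6 rests in part on single tumors and on the test. The methods' t-test, which takes each probe set's own spread, called 0 of the 61 in KO against WT tumors after adjustment and 10 of all probe sets, with Smpdl3a at an adjusted p of 0.0647. With limma the count was 3 without KO3 (1.77% of all called), 3 without WT1, the tumor high in immune cell markers (1.19%), and 2 without WT3 (0.866%). The single MT against WT call was lost without MT3, WT1 or WT3, and without MT4 the count was 4, where calls over the whole array also became more frequent (3.54% of all). Without MT4, 2 members passed in MT against KO tumors (1.04% of all probe sets), Psap (1.35 higher in MT, adjusted p = 0.00993) and a probe set of Lipa (0.94 higher in MT, adjusted p = 0.0229). With the labeling batch as a term, 0 of 61 passed in MT against WT (0.084% of all) and 0 of 61 in MT against KO tumors (0.0575% of all). With each array centered on its median, 8 of 61 passed in KO against WT tumors (5.49% of all), 2 higher and 6 lower, and the share of all called probe sets that were higher was 31.9% in place of 42.3% for KO against WT and 34.0% in place of 48.2% for MT against WT.

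The share of members whose groups did not overlap was closer to that of all probe sets. KO and WT tumors did not overlap at 11 of 61 probe sets (18%, against 14.5% of all), 4 of them above and 7 below. MT and WT tumors did not overlap at 6 (9.84%, against 10.9% of all), and MT and KO tumors at 2 (3.28%, against 4.85% of all).

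**Figure D1:**
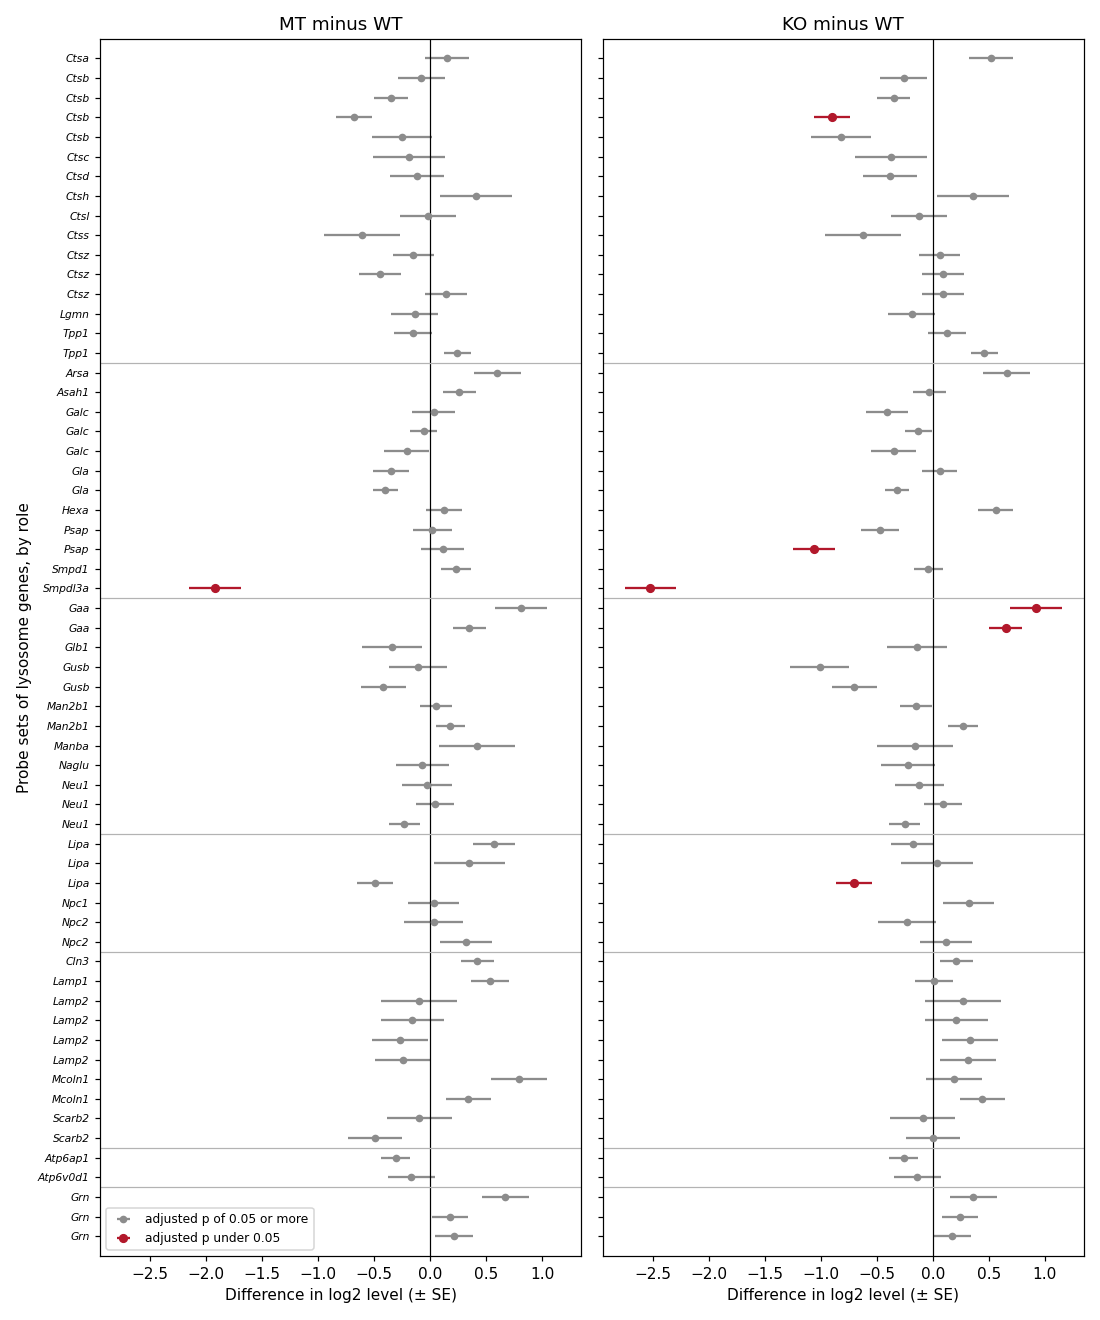
Difference in log2 level between MT and WT tumors (left) and KO and WT tumors (right) for the 61 probe sets of 36 lysosome genes, grouped by role from proteases at the top to progranulin at the bottom; bars are the standard error, and red marks an adjusted p under 0.05. Both panels share the WT tumors. Smpdl3a stands apart at the low end in both, while most members lie within 0.5 of no difference.

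As a description of the list, the mean over 36 genes (1 probe set each, the one with the highest mean) was 9.36 ± 0.11 in MT, 9.27 ± 0.05 in KO and 9.35 ± 0.10 in WT tumors (SD, n = 4 each). KO minus WT was -0.08 for this mean, but 0.08 for the median over the 36 genes, so its direction depends on that choice. The median difference over the 61 probe sets was -0.04 for KO minus WT (-0.02 over all probe sets), -0.03 for MT minus WT (-0.01 over all) and 0.05 for MT minus KO (0.02 over all). Of the 61 probe sets, 28 had a positive KO minus WT difference, 29 a positive MT minus WT difference and 36 a positive MT minus KO difference. With the labeling batch as a term the MT minus KO median over the members was -0.07 (-0.01 over all probe sets), so its direction turned.

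The members varied among tumors of the same genotype. The pooled SD within groups had a median of 0.32 over the 36 genes, with 0.15 for Tpp1 at the low end and 0.52 for Ctss at the high end, against a median of 0.27 over all probe sets. MT2 was the highest of the 12 tumors for 8 genes, WT2 for 5 and KO2 for 5. KO2 was also the lowest for 7 genes and WT1 for 6. No tumor was the highest or the lowest for most of the genes.

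**Figure D2:**
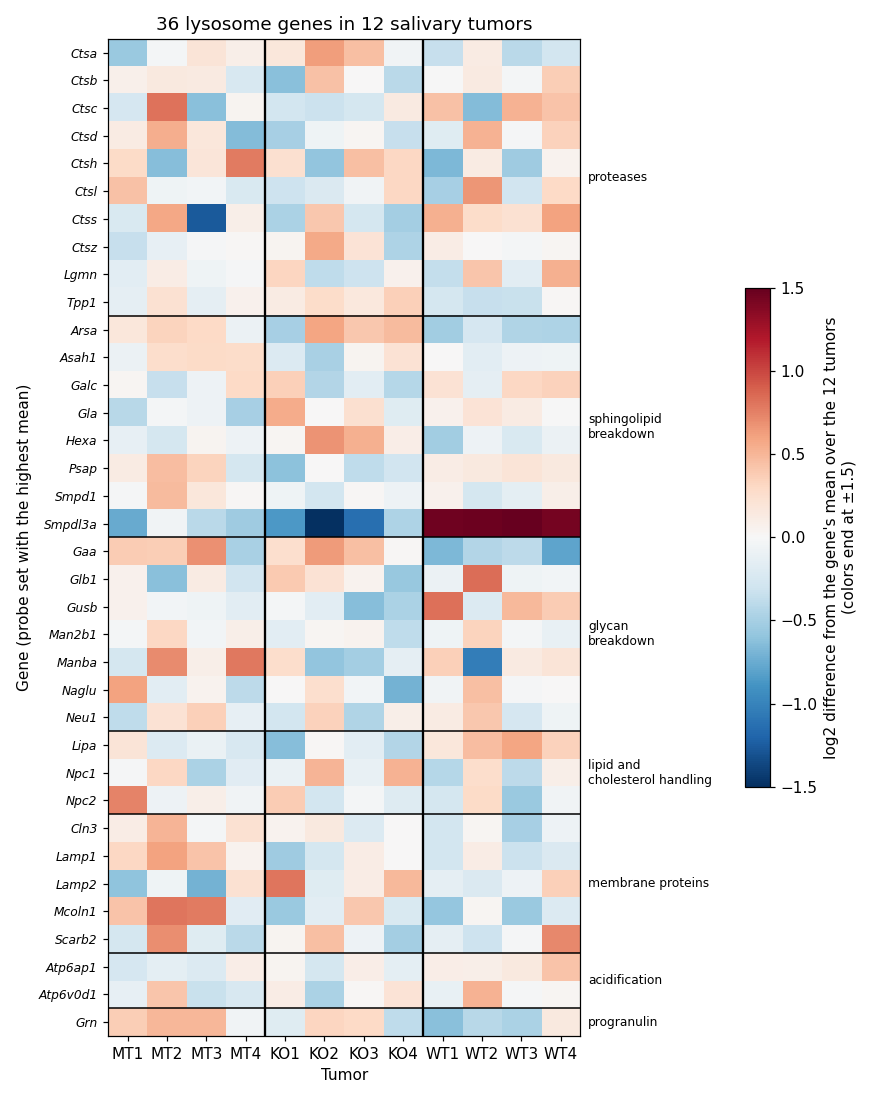
Each row is a lysosome gene read by its probe set with the highest mean, each column a tumor (MT, KO, WT, 4 each), and color the log2 difference from that gene's mean over the 12 tumors. Smpdl3a is the row that separates the 4 WT tumors, while in most other rows high and low tumors are found in every genotype.

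Sphingolipid breakdown was the role with the most called genes, 2 of 8 in KO against WT tumors, both lower (16.7% of 12 probe sets, against 2.64% of all). Both, Smpdl3a and Psap, had been picked by the study from these same tumors, so this rank is not independent evidence. The enzymes of this role remove sugar or sulfate groups from glycosphingolipids and split sphingomyelin and ceramide, with the help of small saposin proteins. Smpdl3a encodes a secreted and lysosomal phosphodiesterase that resembles acid sphingomyelinase, whose human form is known to cleave nucleotides. Its level was 7.33, 8.03, 7.67 and 7.55 in the MT tumors, 7.22, 6.37, 6.95 and 7.62 in the KO tumors and 9.55, 9.55, 9.64 and 9.51 in the WT tumors. All 4 WT tumors lay above the other 8 and close together, with an SD of 0.06.

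Smpdl3a fell by 2.52 ± 0.23 (SE) on the log2 scale in KO relative to WT tumors, a 5.75-fold difference (limma, adjusted p = 0.00148). The call held with each of the 12 tumors left out in turn. In MT tumors it fell by 1.92 ± 0.23 relative to WT tumors, a 3.78-fold difference (adjusted p = 0.0154), and the adjusted p was 0.0829 without MT3, 0.062 without WT1 and 0.0739 without WT3. With the labeling batch as a term the MT minus WT difference was -2.01 (adjusted p = 0.152). MT minus KO was 0.60 (adjusted p = 0.43), and these groups overlapped.

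Psap encodes prosaposin, which is cut in the lysosome into the saposins that present sphingolipids to their hydrolases. Its probe set 1421813_a_at read 11.70, 12.06, 11.88 and 11.18 in the MT tumors, 10.60, 10.72, 10.72 and 10.08 in the KO tumors and 11.50, 11.65, 11.55 and 11.67 in the WT tumors. The KO tumors were below all others, and the MT and WT tumors overlapped. It fell by 1.06 ± 0.19 in KO relative to WT tumors, a 2.09-fold difference (adjusted p = 0.0183), with an adjusted p of 0.055 without WT3.

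In MT tumors this Psap probe set was near the WT level, at 0.11 above it (adjusted p = 0.793), but with the labeling batch as a term the MT minus WT difference was -0.42 (adjusted p = 0.651). MT minus KO was 1.17 (adjusted p = 0.109), the difference with the smallest adjusted p among the members in that comparison, and 0.65 with the labeling batch as a term (adjusted p = 0.733). MT4, the MT tumor of the larger labeling batch, was the lowest MT tumor and still above every KO tumor. The second Psap probe set, 1415687_a_at, had a KO minus WT difference of -0.47 (adjusted p = 0.119), again without overlap, and MT minus KO there was 0.49 (adjusted p = 0.376) with MT4 at 11.18 and KO2 at 11.46.

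Psap and Smpdl3a are both on mouse chromosome 10. The other 920 probe sets of that chromosome had a mean KO minus WT difference of -0.27 and a mean MT minus WT difference of -0.20, against 0.02 and 0.01 over all probe sets, and 110 of them fell in KO tumors (12.0%). The part of the chromosome in the values of the 2 genes was not tested.

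The other sphingolipid genes did not pass. Hexa, a subunit of the hexosaminidase that trims gangliosides, read 9.66 to 10.31 in KO and 9.10 to 9.56 in WT tumors, 0.56 higher in KO without overlap (adjusted p = 0.0726), and MT minus WT was 0.12. Arsa, the arylsulfatase that desulfates sulfatide, read 7.63 to 8.05 in MT, 7.22 to 8.31 in KO and 7.20 to 7.47 in WT tumors. KO minus WT was 0.66 (adjusted p = 0.0908) and MT minus WT 0.60 (adjusted p = 0.169), with the MT but not all KO tumors clear of the WT tumors. Gla, the alpha-galactosidase A that trims globosides, gave -0.40 for MT minus WT (adjusted p = 0.10) and -0.32 for KO minus WT (adjusted p = 0.0972) at its probe set 1449006_at, but its other probe set gave -0.35 for MT minus WT and 0.06 for KO minus WT. The remaining members, Smpd1 (acid sphingomyelinase), Asah1 (acid ceramidase) and Galc (galactosylceramidase, 3 probe sets), had KO minus WT differences between -0.41 and -0.03.

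**Figure D3:**
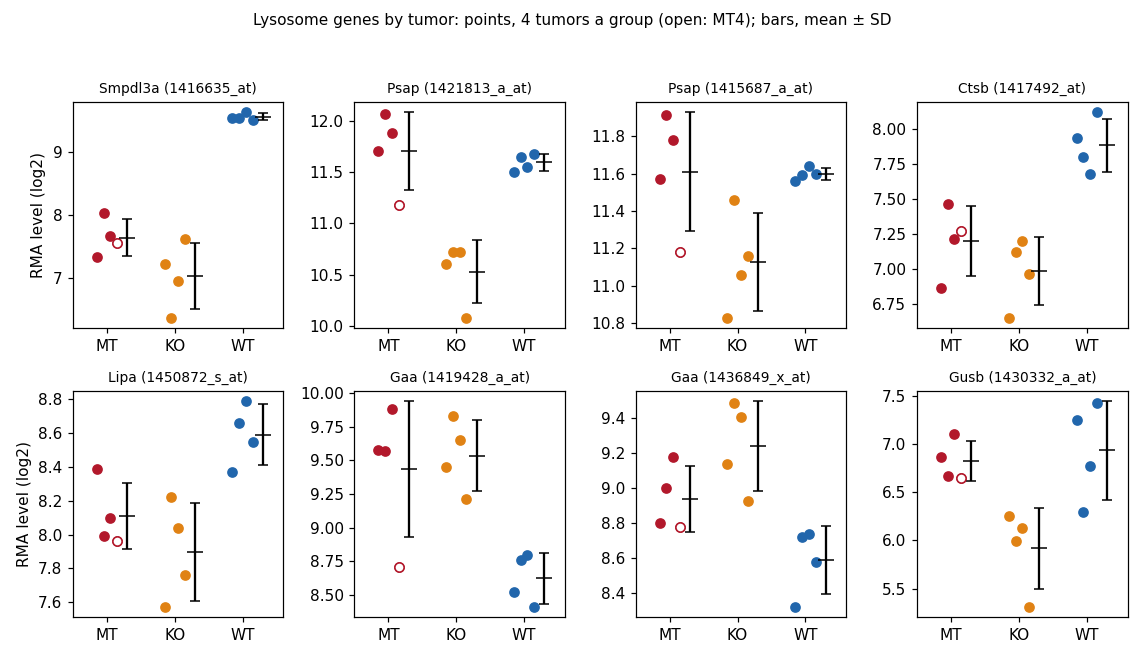
RMA level (log2) of 8 probe sets of lysosome genes in the MT, KO and WT tumors; points are tumors (MT4, the MT tumor outside the labeling batch of MT1 to MT3, is open) and bars the mean ± SD. Smpdl3a and Ctsb are lower in all MT and KO tumors than in any WT tumor, and Psap (1421813_a_at) is lower in all KO tumors than in any MT or WT tumor.

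Among the 10 proteases, 1 of 16 probe sets passed in KO against WT tumors (6.25%, against 4.57% of all) and none in the other comparisons. It read Ctsb, cathepsin B, a cysteine protease that tumors and macrophages are known to secrete as well as keep in lysosomes. This probe set, 1417492_at, read 6.86, 7.46, 7.21 and 7.27 in the MT tumors, 6.65, 7.12, 7.20 and 6.96 in the KO tumors and 7.93, 7.80, 7.68 and 8.12 in the WT tumors. Every MT and KO tumor lay below every WT tumor.

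Ctsb fell by 0.90 ± 0.16 in KO relative to WT tumors there, a 1.87-fold difference (adjusted p = 0.0172), and the call held with each tumor left out. MT minus WT was -0.68 (adjusted p = 0.0756). The other 3 Ctsb probe sets gave -0.82 (1448732_at, adjusted p = 0.102), -0.35 (1417491_at, adjusted p = 0.179) and -0.26 (1417490_at, adjusted p = 0.471) for KO minus WT, and their groups overlapped.

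Tpp1, the tripeptidyl peptidase that removes tripeptides from protein ends, had the smallest p among the other proteases. Its level at probe set 1448313_at was 9.89, 10.25, 9.90 and 10.10 in the MT tumors, 10.15, 10.30, 10.18 and 10.38 in the KO tumors and 9.76, 9.68, 9.70 and 10.04 in the WT tumors. KO and WT tumors did not overlap, with a difference of 0.46 ± 0.12 (adjusted p = 0.0519), and MT minus WT was 0.24 (adjusted p = 0.301). The second Tpp1 probe set gave 0.13 for KO minus WT.

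The remaining proteases spread to both sides. Ctsa, the carboxypeptidase that also shields neuraminidase and beta-galactosidase, was at 0.52 for KO minus WT (adjusted p = 0.14), and Ctsh, an aminopeptidase, at 0.36. Ctss, the cathepsin of antigen-presenting cells, was at -0.62 (adjusted p = 0.288), with 9.34 to 11.18 in MT, 10.09 to 11.00 in KO and 10.82 to 11.20 in WT tumors. Ctsd, the main aspartic protease, was at -0.38, Ctsc, which activates granule proteases, at -0.37, Lgmn, the asparaginyl endopeptidase, at -0.19 and Ctsl at -0.12. The 3 probe sets of Ctsz, a carboxypeptidase, gave 0.06 to 0.09 for KO minus WT.

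Glycan breakdown held the 1 gene called higher in KO tumors, Gaa. The role itself did not rise, as 8 of its 12 probe sets had a negative KO minus WT difference (median -0.14). Gaa encodes acid alpha-glucosidase, which digests the glycogen that reaches the lysosome. At probe set 1419428_a_at it read 9.58, 9.57, 9.88 and 8.71 in the MT tumors, 9.45, 9.83, 9.65 and 9.21 in the KO tumors and 8.52, 8.76, 8.80 and 8.41 in the WT tumors. The KO tumors were all above the WT tumors, and MT4 alone among the MT tumors fell within the WT range.

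Gaa rose by 0.92 ± 0.23 in KO relative to WT tumors at this probe set, a 1.89-fold difference (adjusted p = 0.0461), and by 0.65 ± 0.15 at probe set 1436849_x_at (adjusted p = 0.0377). At the second, the levels were 8.80, 9.0, 9.18 and 8.78 in MT, 9.14, 9.49, 9.41 and 8.93 in KO and 8.32, 8.72, 8.74 and 8.58 in WT tumors. Both calls were lost under cyclic loess (adjusted p = 0.0696 and 0.0637) and with trend and robust moderation (0.0504 and 0.057), and the second also in the 8 tumors compared alone (0.0754) and with dim probe sets left out (0.0542). The first was also lost without KO1, KO2, KO3, MT1, MT2 or any of the 4 WT tumors, with adjusted p-values up to 0.11, and the second without KO1, KO2, KO3, MT1, WT1, WT3 or WT4, up to 0.0993. MT minus WT was 0.81 (adjusted p = 0.113) and 0.35 (adjusted p = 0.246), and 0.09 and 0.19 with the labeling batch as a term. Without MT4 the first was 1.05 (adjusted p = 0.0137). Gaa is on chromosome 11, and the part of the chromosome in its values was not tested.

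Gusb, beta-glucuronidase, which shortens glycosaminoglycans, had the next smallest p in this role. At probe set 1430332_a_at its level was 6.86, 6.67, 7.10 and 6.65 in the MT tumors, 6.25, 5.99, 6.13 and 5.31 in the KO tumors and 7.25, 6.29, 6.77 and 7.42 in the WT tumors. All KO tumors were below all MT and WT tumors. The KO minus WT difference was -1.01 ± 0.26 (adjusted p = 0.0518), and MT minus KO 0.90 (adjusted p = 0.316).

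The second Gusb probe set, 1448124_at, gave -0.70 for KO minus WT (adjusted p = 0.0723) with groups that overlapped at WT2. With arrays centered on the median, both Gusb probe sets passed (adjusted p = 0.035 and 0.0497). Without WT2 they passed too, at -1.22 (adjusted p = 0.0253) and -0.89 (adjusted p = 0.0209).

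The other glycan enzymes were Glb1 (beta-galactosidase), Man2b1 and Manba (alpha- and beta-mannosidase), Neu1 (sialidase) and Naglu (a heparan sulfate glucosaminidase). Their KO minus WT differences ran between -0.25 and 0.27, and none passed in any comparison. Manba had the widest spread, with 7.36 to 8.41 in MT, 7.04 to 7.89 in KO and 6.59 to 7.99 in WT tumors.

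Lipid and cholesterol handling had 1 called probe set of 6 in KO against WT tumors (16.7%, against 4.57% of all). Lipa encodes the acid lipase that frees cholesterol and fatty acids from lipoprotein esters. Its probe set 1450872_s_at read 8.39, 7.99, 8.10 and 7.96 in the MT tumors, 7.57, 8.22, 8.04 and 7.76 in the KO tumors and 8.37, 8.66, 8.79 and 8.55 in the WT tumors. The KO tumors lay below the WT tumors, and MT1 fell within the WT range.

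Lipa fell by 0.70 ± 0.16 in KO relative to WT tumors there, a 1.62-fold difference (adjusted p = 0.0351), but its probe sets did not all point the same way. The other 2 gave -0.18 (1423140_at) and 0.04 (1423141_at) for KO minus WT, with adjusted p-values of 0.625 and 0.955. The call was lost without KO1, KO3, KO4, MT3, WT1, WT2 or WT3, with adjusted p-values up to 0.0959, in the 8 tumors compared alone (0.0717) and with trend and robust moderation (0.0509). For MT minus WT the 3 gave -0.49 (1450872_s_at), 0.57 (1423140_at) and 0.35 (1423141_at), none of which passed. With the labeling batch as a term 1423140_at gave -0.01 and 1423141_at -0.02, and without MT4 the value of 1423140_at was 0.77 (adjusted p = 0.0256).

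Npc1 and Npc2 hand cholesterol out of the lysosome, Npc2 binding it in the lumen and Npc1 moving it across the membrane. Npc1 read 7.25, 7.57, 6.79 and 7.10 in the MT tumors, 7.17, 7.77, 7.15 and 7.79 in the KO tumors and 6.84, 7.53, 6.87 and 7.35 in the WT tumors. The 3 groups overlapped, and KO minus WT was 0.32 ± 0.23 (adjusted p = 0.417). The 2 probe sets of Npc2 gave -0.23 and 0.12.

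No membrane protein passed. The KO minus WT difference was positive at 8 of 10 probe sets (47.4% of all were positive), with a median of 0.21. Several of these read the same gene, Lamp2 or Mcoln1, so they are not independent. Mcoln1, the calcium channel of the lysosome membrane, had the smallest p. At probe set 1416672_s_at it read 7.67, 8.06, 8.13 and 7.85 in the MT tumors, 7.49, 7.98, 8.37 and 8.28 in the KO tumors and 7.34, 7.86, 7.56 and 7.61 in the WT tumors. KO minus WT was 0.44 ± 0.20 (adjusted p = 0.20), with overlap.

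At its other probe set, 1416671_a_at, Mcoln1 read 8.41, 8.78, 8.76 and 7.81 in the MT tumors, 7.42, 7.83, 8.39 and 7.75 in the KO tumors and 7.40, 8.01, 7.43 and 7.77 in the WT tumors. MT1, MT2 and MT3 were above every KO and WT tumor, and MT4 was not. MT minus WT was 0.79 (adjusted p = 0.145), 0.16 with the labeling batch as a term and 1.00 without MT4 (adjusted p = 0.0446).

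Cln3, a membrane protein lost in juvenile neuronal ceroid lipofuscinosis, read 6.90, 7.30, 6.75 and 7.01 in the MT tumors, 6.84, 6.93, 6.58 and 6.79 in the KO tumors and 6.50, 6.81, 6.28 and 6.70 in the WT tumors. KO minus WT was 0.21 ± 0.15 (adjusted p = 0.414) and MT minus WT 0.42 (adjusted p = 0.173). Lamp1 and Lamp2 coat the inner face of the membrane. Lamp1 gave 0.53 for MT minus WT (adjusted p = 0.14) and 0.01 for KO minus WT, while the 4 probe sets of Lamp2 gave 0.21 to 0.33 for KO minus WT and -0.27 to -0.10 for MT minus WT. With the labeling batch as a term the direction of all 4 Lamp2 values turned for MT minus WT, to 0.17 to 0.54, and Lamp1 was at 0.23. Scarb2, the carrier of glucocerebrosidase, gave -0.09 and 0.00 for KO minus WT at its 2 probe sets.

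The 2 subunits of the proton pump on the list did not pass. Atp6ap1, an accessory subunit, read 9.53 to 9.88 in MT, 9.51 to 9.87 in KO and 9.87 to 10.21 in WT tumors, with KO minus WT at -0.26 (adjusted p = 0.238) and MT minus WT at -0.31 (adjusted p = 0.21). Atp6v0d1, of the membrane sector, gave -0.14 and -0.17. Grn, progranulin, which is carried to the lysosome with prosaposin and cut there into granulins, had 3 probe sets that were all positive. KO minus WT was 0.17 to 0.36 and MT minus WT 0.18 to 0.67, with the smallest adjusted p at 0.143. With the labeling batch as a term MT minus WT was 0.01 to 0.29.

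The lower members in KO tumors stood beside macrophage and acinar markers that were mostly lower. Of 18 macrophage probe sets, 2 fell in KO against WT tumors (C1qb and Tyrobp; 11.1%, against 2.64% of all). The 2 with a positive difference were Cd14 (2.13, adjusted p = 0.19) and Cd163 (0.08). A C1qb probe set also fell in MT against WT tumors (-0.92, adjusted p = 0.0246), and gave -0.73 with the labeling batch as a term. The mean over 14 macrophage genes was 7.24 to 8.13 in MT, 7.37 to 7.91 in KO and 7.76 to 8.19 in WT tumors. Acinar and demilune markers, the secretory cells of normal salivary gland, fell at 2 of 11 probe sets in KO tumors (Prpmp5 and Dcpp1; 18.2%, against 2.64% of all). Their mean was 9.20 to 10.08 in MT, 8.85 to 9.79 in KO and 10.88 to 11.96 in WT tumors. Endothelial markers fell at 3 of 10 probe sets and T and NK cell markers at 1 of 11 in KO tumors. All 3 endothelial calls were just above the threshold with the labeling batch as a term (Emcn 0.0529, Pecam1 0.0518 and Vwf 0.0574, adjusted p). Their KO minus WT differences did not change, since all KO and WT tumors are in the same batch. No other marker list had a called probe set in the 3 comparisons, and array levels have no true zero, so no marker can be said to be absent. The part of these cells in the values of Smpdl3a, Psap, Ctsb and Lipa was not tested.

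**Figure D4:**
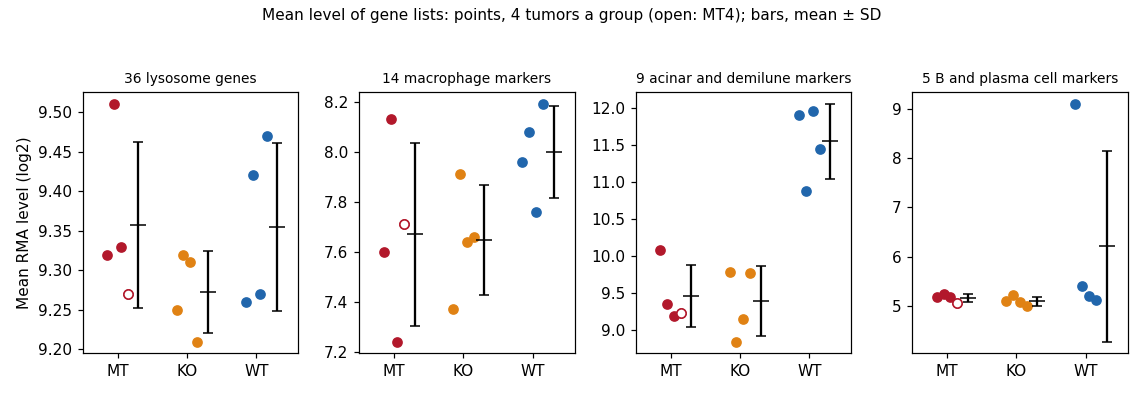
Mean log2 level over 36 lysosome genes and over markers of macrophages, of acini and demilunes and of B and plasma cells in each tumor (points; MT4 open) with the mean ± SD of each genotype. The lysosome mean overlaps among the 3 genotypes, the acinar mean of every WT tumor is above that of every MT and KO tumor, and WT1 alone is high in B and plasma cell markers.

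The wider lysosomal system was covered by 6 further lists of 163 genes, of which 135 were measured by 259 probe sets. In KO against WT tumors 13 probe sets rose and 9 fell (8.49% called, against 4.57% of all), and in MT against WT tumors 2 rose and 3 fell (1.93%, against 0.367% of all). In MT against KO tumors none passed with limma. An unadjusted p under 0.05 was found there at 41 of the 259, a larger share than the 9.58% of all probe sets. With the labeling batch as a term none passed in MT against WT tumors.

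Other lysosomal hydrolases had 2 genes higher and 1 lower in KO tumors among 27 measured (8.0% of 50 probe sets called, against 4.57% of all). Creg1, a glycoprotein of the lysosome lumen that the study also listed from these tumors, read 7.98, 7.44, 7.75 and 8.34 in the MT tumors, 8.29, 8.12, 7.67 and 7.67 in the KO tumors and 9.57, 9.15, 9.53 and 9.02 in the WT tumors at probe set 1415947_at. All WT tumors were above all others. Creg1 fell by 1.38 in KO (adjusted p = 0.0126) and by 1.44 in MT tumors (adjusted p = 0.0246) relative to WT tumors, the MT minus WT value being -0.97 with the labeling batch as a term (adjusted p = 0.448). Dpp7, a dipeptidyl peptidase, was 1.79 higher in KO than in WT tumors (adjusted p = 0.0197) and Acp2, the lysosomal acid phosphatase, 0.88 higher (adjusted p = 0.0196), each at 1 of 3 probe sets.

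Among other membrane proteins, Glmp rose by 0.83 in KO tumors (adjusted p = 0.0362), while Tmem192 fell by 0.79 (adjusted p = 0.0271) and Cd68, the macrophage sialomucin, fell by 0.91 (adjusted p = 0.0483). With the labeling batch as a term the adjusted p of Cd68 was 0.0537 at the same difference. None of the 40 probe sets of 20 other proton pump subunits passed in any comparison with limma, where the smallest adjusted p was 0.0992, although 2 had an unadjusted p under 0.05 in KO against WT (23.9% of all probe sets did), 4 in MT against WT (19.4% of all) and 5 in MT against KO tumors (9.58% of all).

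Sorting to the lysosome had 3 genes higher and 2 lower in KO tumors among 25 measured (13.2% of 53 probe sets called, against 4.57% of all). Gnptab, which encodes the subunits of the enzyme that makes the mannose 6-phosphate tag, read 6.67, 6.44, 6.03 and 6.57 in the MT tumors, 6.38, 6.24, 6.02 and 6.39 in the KO tumors and 7.93, 7.97, 7.56 and 7.36 in the WT tumors at probe set 1435335_a_at. The WT tumors were all above the rest. Gnptab fell by 1.45 in KO (adjusted p = 0.0061) and by 1.28 in MT tumors (adjusted p = 0.0228), and its other 2 probe sets also fell in KO tumors, by 0.61 and 0.83. Gnptab too is on chromosome 10, and the part of the chromosome in its value was not tested.

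Sort1, sortilin, a receptor that carries prosaposin and progranulin among other cargo, read 8.28, 8.64, 8.45 and 7.78 in the MT tumors, 7.81, 7.60, 7.66 and 7.64 in the KO tumors and 6.23, 6.74, 6.94 and 7.27 in the WT tumors at probe set 1423363_at. All MT and KO tumors were above the WT tumors. MT minus WT was 1.49 (adjusted p = 0.0246), or 0.99 with the labeling batch as a term (adjusted p = 0.448), and KO minus WT 0.88 (adjusted p = 0.0476). Vps18, a core subunit of the tethering complexes of late endosomes, rose in both (0.87 in MT, adjusted p = 0.0412; 0.71 in KO, adjusted p = 0.0288), and Vps11, of the same complexes, by 0.77 in KO tumors (adjusted p = 0.0339). Ap3m1, of an adaptor for lysosomal membrane proteins, fell by 0.76 in KO tumors at 1 of its 4 probe sets (adjusted p = 0.0473), while the other 3 gave -0.32 to 0.42. With the labeling batch as a term the adjusted p of the first was 0.0552 at the same difference. The KO calls of Sort1, Vps11 and Vps18 also came from 1 probe set each, of 3, 3 and 2, and their other probe sets gave 0.00 to 0.61.

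In the list of TFEB relatives and mTORC1 control, Tfeb itself gave 0.06 for KO minus WT (adjusted p = 0.778) and 0.30 for MT minus WT (adjusted p = 0.197). Flcn, folliculin, part of the complex that lets mTORC1 act on TFEB, rose in KO tumors at 2 of its 3 probe sets, by 0.59 (adjusted p = 0.0199) and 0.76 (adjusted p = 0.0294). Tsc1, a brake on mTORC1, rose by 0.66 (adjusted p = 0.0196) at 1 of 2 probe sets, while the other gave -0.02 (adjusted p = 0.945). Lamtor1, an anchor of mTORC1 at the lysosome, fell by 0.46 (adjusted p = 0.0464) at 1 of 3 probe sets, the other 2 giving -0.28 and -0.25. In the autophagy list 3 of 24 genes rose in KO tumors and none fell (7.84% of 51 probe sets rose, against 1.94% of all). Wipi1, a phosphoinositide-binding protein of forming autophagosomes, rose at 2 of 5 probe sets, by 1.19 (adjusted p = 0.0263) and 0.96 (adjusted p = 0.0286), and the cargo receptors Tax1bp1 and Nbr1 rose by 1.01 (adjusted p = 0.0365) and 0.63 (adjusted p = 0.026), at 1 of 3 and 1 of 2 probe sets. The other Nbr1 probe set gave 0.06 (adjusted p = 0.886), the other 2 of Tax1bp1 gave 0.40 and 0.54, and the other 3 of Wipi1 -0.14 to 0.65. Flcn, Wipi1 and Nbr1 are, like Gaa, on chromosome 11, as is Cd68, which fell. The part of the chromosome in their values was not tested.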

How the data were processed

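Each of the 12 tumors gave 1 RNA sample and 1 Affymetrix array. The authors deposited log2 values made with RMA in BRB-ArrayTools, as their methods state; the submitters' processing notes name both MAS5 and RMA. RMA equalizes the arrays' distributions, so a shift shared by most genes cannot be seen. Levels of different probe sets were not set against each other, and the number of arrays limits the precision. Of 22690 probe sets, 64 controls were left out and 22626 tested, and 20380 of these have 1 gene symbol in the platform annotation.

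The linear model held 1 mean per genotype, used every tumor and was fitted in R 4.3.3 by limma 3.58.1 (lmFit, then eBayes; 9 residual degrees of freedom). Its 2-sided p-values were adjusted by Benjamini-Hochberg across the 22626 probe sets, and an adjusted p under 0.05 was called. The fit was tested on simulated data. Other settings tried were leaving out dim probe sets (12197 kept), centering on the median, cyclic loess, the 8 tumors compared alone, trend and robust moderation, array weights, the labeling batch or the replicate number as a term, the methods' t-test, a threshold of 0.10, 1 probe set per gene and each tumor left out. Tumors with the same replicate number were not treated as pairs. Chromosomes and promoter windows came from RefSeq (GRCm38.p6). Tables were made with Python 3.11.15.

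The members, the role groups and the other lists were chosen with earlier results of these data known. Values in every tumor are given for members with a called probe set and, in roles of 3 or more members with fewer than 2 such genes, for those with the smallest p in KO against WT tumors. Hexa, Arsa, Gla, Ctss, Manba and Atp6ap1 were given ranges after their values were seen, as were Creg1, Gnptab and Sort1 their values by tumor and Ap3m1 and Tfeb their differences.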

Additional observations from a re-analysis of the deposited data

Results flagged for a closer look

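There were 186 sets of 4 tumors (61 probe sets and the list mean in 3 genotypes). In 9 of them, a tumor's gap to its nearest neighbor took more of the set's range than Dixon's 95% criterion allows. Chance gives about 1 in 20, so this count is about what chance alone would give. The sets share tumors and genes and are not independent. WT2 was such a tumor at 4 of the 9. Glb1 read 9.35 there against 8.42 to 8.46 in the other WT tumors (0.952 of the range), and Naglu 7.53 against 7.02 to 7.08 (0.893). Ctsc in WT2 was low, at 9.58 against 10.65 to 10.75 (0.919), as was Manba, at 6.59 against 7.76 to 7.99 (0.836). Atp6ap1 was high in WT4, at 10.21 against 9.87 to 9.92 (0.846). Among KO tumors, a Lamp2 probe set was low in KO2, at 9.54 against 10.45 to 10.57 (0.884), and Ctsc high in KO4, at 10.36 against 9.90 to 9.96 (0.872). Among MT tumors, Asah1 was low in MT1, at 9.53 against 9.89 to 9.91 (0.948), and a Gla probe set low in MT4, at 6.03 against 6.17 to 6.20 (0.842).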

How the results depend on the processing

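Among 1245 values of the genes shown by tumor under alternatives, 1176 stayed on the same side of the threshold, 44 lost the call, 25 gained it and 0 called values changed sign. The count of called members in KO against WT tumors, 6, was 14 with array weights (23.0%, where 14.5% of all probe sets were called), 0 with the methods' t-test, 12 at an adjusted p under 0.10 (19.7%, against 11.2% of all) and 3 with 1 probe set per gene (8.33%), and between 2 and 6 with a tumor left out. In MT against WT tumors the count of 1 became 14 with array weights (23.0%, near the 22% of all probe sets), 0 with the labeling batch (poly-A) as a block, 0 with the t-test and 2 at 0.10 (3.28%, against 2.73% of all), and lay between 0 and 4 with a tumor left out. In MT against KO tumors the count of 0 became 1 with array weights (0.194% of all) and lay between 0 and 2 with a tumor left out. The list mean for KO minus WT was 0.08 with the median over the members in its place, and -0.11 to -0.04 with a tumor left out. For MT minus KO it was -0.07 with the median over the members and -0.01 with the batch block. The cause of these changes was not tested. The weights ran between 0.45 for WT2 and 3.30 for WT3. With the replicate number as a block, 6 probe sets passed in KO against WT (Lipa lost its call at an adjusted p of 0.0511 and Tpp1 gained one at 0.0486), 1 in MT against WT and 0 in MT against KO tumors; same-numbered tumors' deviations correlated over 0.1 in 6 of 12 pairs. With 4 tumors a group, differences of the size of most members were not detectable.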
